A study of Mus musculus with 12 samples.

Results

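The genes described here are 10 genes of MHC class I antigen processing, taken by symbol from the 56748 genes of the count matrix: Nlrc5, Psmb8, Psmb9, Psmb10, Psme1, Psme2, Tap1, Tap2, Tapbp and Erap1. All 10 were found, and all 10 were among the 15033 genes that passed the filter on low counts, with at least 534 counts in every library. They were followed through bulk RNA sequencing of bone marrow-derived macrophages (BMDM), at the RNA level only.

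BMDM were grown from bone marrow of wild-type C57BL/6J mice with 20 ng/mL M-CSF and polarized into an M2-like state with 10 ng/mL IL4 for 48 hours, in all groups. They were then cultured for 72 hours under 1 of 4 conditions, with 3 libraries each. Untreated control BMDM received plain medium. The eGFP supernatant group received diluted medium of YUMM5.2 eGFP cells, a mouse melanoma line carrying eGFP under a tetracycline-response promoter. The Ifnb1eGFP supernatant group received medium of YUMM5.2 Ifnb1eGFP cells, which express Ifnb1 and eGFP from the same promoter, diluted to 1500 pg/mL IFNβ. The rIFNβ group received recombinant IFNβ at an equal concentration. Both tumor cell lines had been treated with 1 µg/mL doxycycline (Dox) for 72 hours, and both supernatants were diluted in an equal proportion. The donor mice are given as 3 per condition. The study's animals were female and their age is given at purchase, not for the marrow donors. What the replicate number stands for is not stated. P-values below measure the spread between these libraries. The 6 libraries without added IFNβ are called unexposed and the other 6 exposed.

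Class I molecules show peptides from inside the cell to CD8+ T cells. Most of these peptides are cut by the proteasome, carried into the endoplasmic reticulum (ER) by the TAP transporter, trimmed there and loaded onto the class I heavy chain. Interferons are known to replace the catalytic subunits of the standard proteasome with those of the immunoproteasome and to raise the other genes of the route, partly through the transcriptional coactivator Nlrc5.

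Library totals were 31526034 to 45348457 counts. All 8 macrophage markers were at 1 CPM (counts per 1000000 counts) or more, with a summed level of 14300 to 15400 CPM in untreated control, 18100 to 18600 with eGFP supernatant, 9850 to 10000 with rIFNβ and 10600 to 10800 with Ifnb1eGFP supernatant. Of the 4 M2-like markers 3 reached a mean of 1 CPM. The sums of the 4 were 738 to 887 CPM in untreated control and 844 to 960 with eGFP supernatant. With rIFNβ they were 825 to 956 CPM, and with Ifnb1eGFP supernatant 998 to 1020. No marker of T cells, B cells, dendritic cells, melanoma cells or erythroid cells reached a mean of 1 CPM, with sums of at most 1.61 CPM. Of the 5 neutrophil markers 1 reached it, with sums of 4.28 to 5.72 CPM in untreated control, 4.34 to 4.98 with eGFP supernatant, 0.208 to 0.985 with rIFNβ and 0.397 to 0.531 with Ifnb1eGFP supernatant. All 3 fibroblast markers did, with sums of 14.5 to 31.7 CPM over the 12 libraries. The part of these markers in the results below was not tested. In bulk RNA, fewer cells of a type and less RNA per cell cannot be told apart.

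Of the 10 genes, 4 lie next to each other on chromosome 17. In GRCm39 these are Psmb9 (chr17:34400960-34406738, minus strand), Tap1 (chr17:34405996-34416199, plus), Psmb8 (chr17:34416690-34420428, plus) and Tap2 (chr17:34422501-34435829, plus), and Tapbp (chr17:34134873-34148267, plus) is on the same chromosome. Psme1 (chr14:55815190-55822034, plus) and Psme2 (chr14:55824895-55829173, minus) are neighbours on chromosome 14. Nlrc5 (chr8:95160984-95253900, plus) and Psmb10 (chr8:106662362-106665077, minus) lie apart on chromosome 8, and Erap1 (chr13:74787687-74841320, plus) is on chromosome 13. Psmb9 and Tap1 are transcribed away from each other and share 743 exon bases on opposite strands. Exon bases are also shared with a protein-coding gene of the opposite strand by Psme1 (2192 with Emc9), Psme2 (731 with Rnf31) and Erap1 (835 with Cast), and by Tapbp with Zbtb22 on the same strand (923). Tapbp, Tap2, Psmb8 and Nlrc5 share exon bases with long noncoding RNA genes of the opposite strand, for Tapbp 1130 with Gm19412. The library kit keeps the strand, but the strand setting of the counting is not given in the sources used here. Reads in the stretches on opposite strands could therefore be split between partners. Those shared by Tapbp and Zbtb22 could be split at any strand setting.

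Promoter windows of RefSeq (GRCm38.p6, 250 bases before to 50 after the start) were matched by symbol for 8 of the 10 genes, with 9 windows in all. Tap2 and Nlrc5 had none. Because all members rose together, the windows were searched on both strands for the core letters of the interferon-stimulated response element, GAAANNGAAA, and of the gamma-activated site, TTCNNNGAA. The first was found in 2 of the 8 genes, Erap1 and Psme1, and in 3.44% of 32851 windows of all genes. The second was found in Psmb8 alone, and in 8.3% of all windows. The 30 bases around each match are shown because they are the places where these letters occurred, with the match in capitals on the plus strand, and for the first motif the capitals are its reverse complement. The matches begin 4 bases before the Erap1 start (chr13:74639839-74639868), 9 bases after the Psme1 start (chr14:55578493-55578522) and 97 bases before the Psmb8 start (chr17:34198088-34198117), all in GRCm38.p6.
Erap1: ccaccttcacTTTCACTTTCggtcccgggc
Psme1: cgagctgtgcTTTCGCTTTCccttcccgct
Psmb8: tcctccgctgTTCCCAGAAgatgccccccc

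The stretch between the RefSeq starts of Psmb9 and Tap1 is shown because both genes that begin there rose past a log2 fold change of 2. It is 225 bases long (chr17:34187331-34187555, GRCm38.p6, plus strand, so that Tap1 is read to the right and Psmb9 to the left). Neither motif matched in it, which says only that these letters are not in this window. In the GENCODE positions given above the 2 genes overlap instead, so the 2 annotations place their starts differently.
Psmb9 to Tap1: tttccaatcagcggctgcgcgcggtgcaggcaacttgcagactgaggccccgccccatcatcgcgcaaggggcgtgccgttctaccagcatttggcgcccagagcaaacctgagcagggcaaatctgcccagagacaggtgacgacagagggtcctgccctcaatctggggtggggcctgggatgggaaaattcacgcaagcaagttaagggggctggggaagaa

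The first question was what IFNβ did to these genes, as rIFNβ against untreated control and as Ifnb1eGFP supernatant against eGFP supernatant. All 10 genes rose in both comparisons, by 0.85 to 3.17 on the log2 scale with rIFNβ and by 0.72 to 2.63 with Ifnb1eGFP supernatant. Differences were called at 0.05 after Benjamini-Hochberg adjustment of the p-values of the quasi-likelihood test in edgeR, over all 15033 genes. Over all genes tested, 30.7% were called higher with rIFNβ and 30.1% with Ifnb1eGFP supernatant, and 24.6% and 25.0% were called lower. In every one of the 10 genes the 3 exposed libraries lay above the 3 unexposed ones in both comparisons, against 36.4% and 32.4% of all genes. The median log2 fold change of the 10 genes was 1.40 with rIFNβ and 1.20 with Ifnb1eGFP supernatant, beside 0.04 and 0.03 over all genes. At the stricter threshold used in the study, an adjusted p of 0.01 or less and a log2 fold change of 2 or more, the genes that passed were Tap1, Psmb9 and Nlrc5 in both comparisons, 3 of 10 against 2.99% and 2.77% of all genes. Psmb8 was just below it with rIFNβ, at 1.99 (95% interval 1.81 to 2.17).

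**Figure D1:**
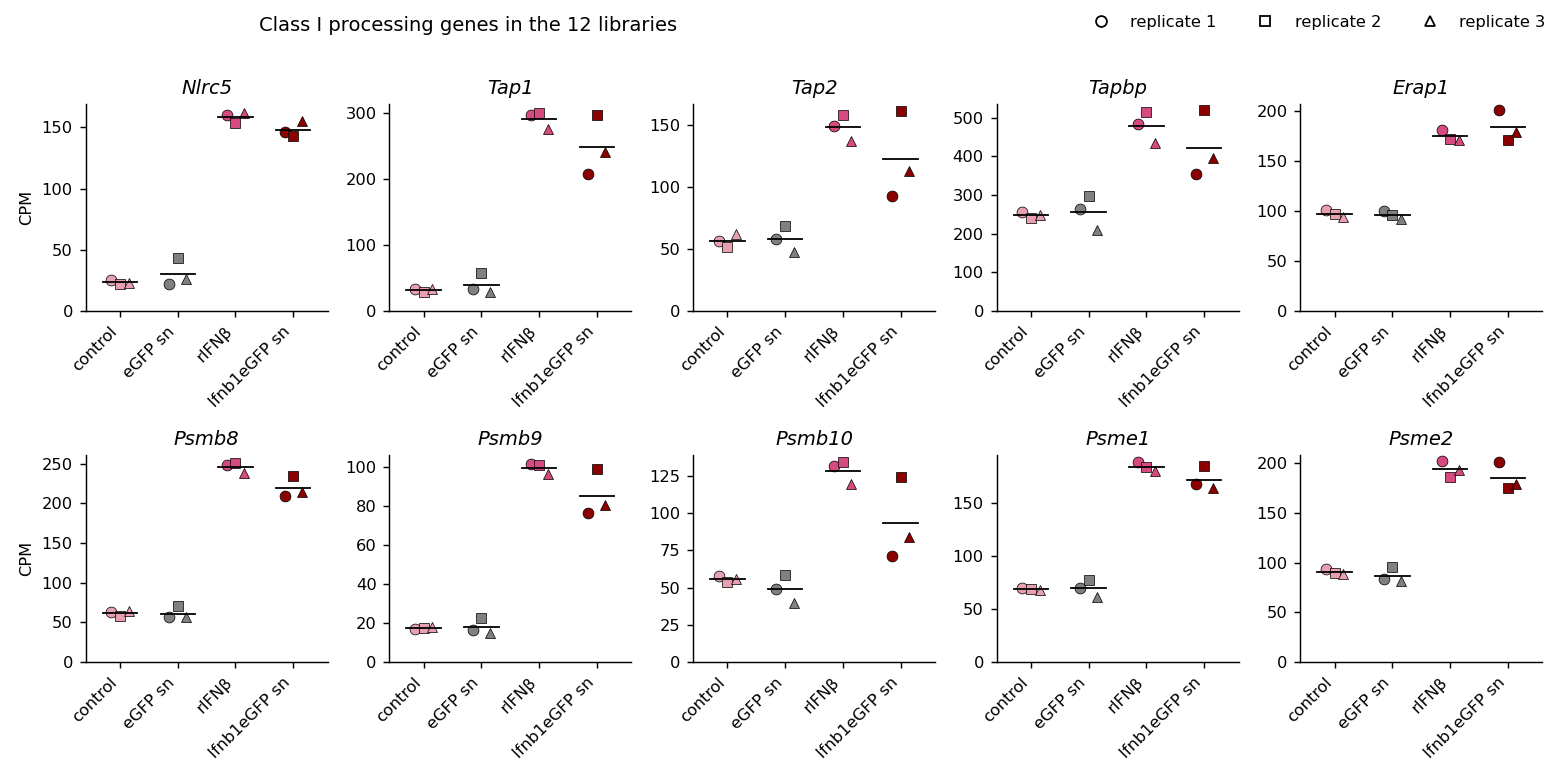
CPM of the 10 genes in the 12 libraries, with a linear axis from 0 in each panel, markers for the replicate numbers and a line at the mean of each group (sn, supernatant). The exposed libraries lie above the unexposed ones in all 10 panels, and the Ifnb1eGFP supernatant libraries of Tap2, Tapbp and Psmb10 are spread wider than those of rIFNβ.

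Nlrc5 is a transcriptional coactivator that acts on class I genes and on several genes of their processing. Its level was 25.5, 22.4 and 23.2 CPM in untreated control, 22.1, 43.0 and 26.6 with eGFP supernatant, 159.9, 153.5 and 161.8 with rIFNβ, and 146.3, 143.3 and 155.4 with Ifnb1eGFP supernatant. The exposed libraries were close together, while eGFP supernatant replicate 2 stood above the other unexposed libraries. Nlrc5 rose by 2.74 (SE 0.191, adjusted p = 2.67e-07, edgeR) on the log2 scale with rIFNβ and by 2.28 (SE 0.186, adjusted p = 1.12e-06, edgeR) with Ifnb1eGFP supernatant.

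Psmb8, Psmb9 and Psmb10 encode the 3 catalytic subunits that set the immunoproteasome apart from the standard proteasome. Psmb8 was at 63.1, 58.5 and 63.9 CPM in untreated control, 56.8, 70.1 and 56.7 with eGFP supernatant, 248.7, 250.6 and 238.4 with rIFNβ, and 209.7, 234.6 and 213.7 with Ifnb1eGFP supernatant. It rose by 1.99 (SE 0.0823, adjusted p = 4.21e-09, edgeR) and 1.84 (SE 0.0818, adjusted p = 8.46e-09, edgeR), the smallest adjusted p of the 10 genes in each comparison. Psmb9 was the lowest of the 3 in CPM before exposure, with 16.98, 17.77 and 18.03 CPM in untreated control and 16.6, 22.8 and 14.7 with eGFP supernatant. It reached 101.8, 101.2 and 96.6 CPM with rIFNβ and 76.6, 99.4 and 80.5 with Ifnb1eGFP supernatant, a rise by 2.50 (SE 0.143, adjusted p = 5.39e-08, edgeR) and 2.24 (SE 0.142, adjusted p = 1.36e-07, edgeR). Psmb10 was at 57.5, 53.5 and 55.5 CPM in untreated control, 48.8, 58.7 and 39.7 with eGFP supernatant, 131.6, 134.0 and 119.3 with rIFNβ, and 71.2, 124.0 and 84.2 with Ifnb1eGFP supernatant. Its rise was 1.21 (SE 0.183, adjusted p = 0.000159, edgeR) with rIFNβ and 0.93 (SE 0.182, adjusted p = 0.00115, edgeR) with Ifnb1eGFP supernatant. The lowest Ifnb1eGFP supernatant library of Psmb10 stood close above its highest eGFP supernatant library. The 95% interval of the rise with rIFNβ was 2.19 to 2.82 for Psmb9 and 0.81 to 1.61 for Psmb10, so the 3 subunits did not rise to the same extent.

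Each immunoproteasome subunit takes the place of a standard one: Psmb8 that of Psmb5, Psmb9 that of Psmb6 and Psmb10 that of Psmb7. The standard subunits did not rise. Psmb5 fell by 0.30 (adjusted p = 0.0127, edgeR) with rIFNβ and by 0.36 (adjusted p = 0.005, edgeR) with Ifnb1eGFP supernatant. Psmb6 fell by 0.23 (adjusted p = 0.027, edgeR) with Ifnb1eGFP supernatant, and its log2 fold change with rIFNβ was -0.10 (adjusted p = 0.316, edgeR). Psmb7 was at -0.11 in both comparisons and was not called.

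To compare the members of a pair, CPM were divided by the length of the canonical transcript, and the immunoproteasome gene was given as a share of the pair's RNA. The share of Psmb8 was 38.7% ± 0.653 (SD, n = 3) in untreated control, 39.7% ± 2.46 with eGFP supernatant, 75.6% ± 0.219 with rIFNβ and 75.3% ± 1.72 with Ifnb1eGFP supernatant. The share of Psmb9 was 8.42% ± 0.172, 8.53% ± 1.39, 35.8% ± 0.664 and 34.3% ± 0.801 in the same order. The share of Psmb10 was 33.1% ± 1.75, 30.5% ± 4.19, 55.3% ± 1.42 and 46.9% ± 8.61. Psmb8 and, with rIFNβ, Psmb10 thus became the larger part of their pair, while Psmb9 stayed the smaller part. The levels depend on the length used. With the union of all exons Psmb8 went from 24.9% in untreated control to 61.9% with rIFNβ, Psmb9 from 6.48% to 29.6% and Psmb10 from 66.0% to 82.9%, so that Psmb10 was then the larger part in every group.

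**Figure D2:**
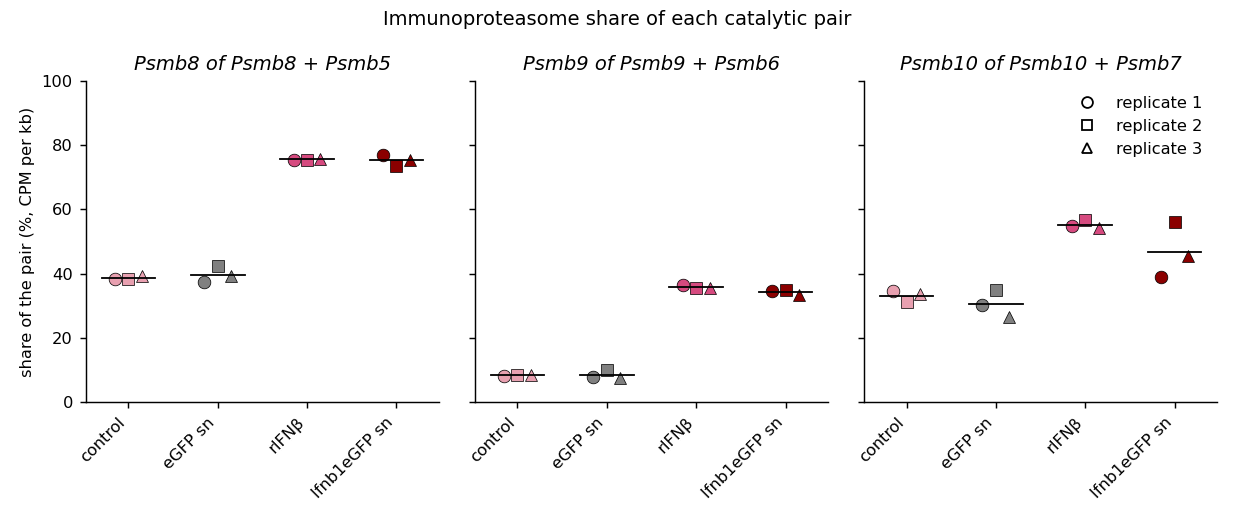
Share of the immunoproteasome gene in the summed RNA of each catalytic pair, in percent of CPM per kb of canonical transcript, for the 12 libraries with a line at each group mean. Exposed libraries are higher in all 3 pairs, and the Psmb10 share of Ifnb1eGFP supernatant runs from 39.0% to 56.1%.

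The log2 ratio of each pair was tested over the 12 libraries by an exact two-sided permutation test, relabelling exposed and unexposed libraries within each state of supernatant. The 400 relabellings allow no p under 0.005, and 3 libraries against 3 alone allow none under 0.1. The log2 ratio of Psmb8 to Psmb5 was higher by 2.25 in the exposed libraries, that of Psmb9 to Psmb6 by 2.55 and that of Psmb10 to Psmb7 by 1.17. Each of the 3 exact permutation tests gave p = 0.005, the smallest these relabellings can give, and 0.0125 after adjustment over the 10 ratio tests. These tests take libraries of different replicate numbers as exchangeable. With relabelling within replicate numbers, which allows fewer relabellings, each adjusted p was 0.0781 (exact permutation test). The presence of supernatant changed the 3 ratios by 0.02, -0.04 and -0.33, with adjusted p = 0.695, 0.695 and 0.175 in the exact permutation test. The ratio of Psmb10 to Psmb7 depended on single libraries here. Without eGFP supernatant replicate 2 it was -0.41 (adjusted p = 0.0429, exact permutation test) and without Ifnb1eGFP supernatant replicate 2 -0.47 (adjusted p = 0.0417, exact permutation test). For Psmb9 to Psmb6 it was -0.11 (adjusted p = 0.01, exact permutation test) without eGFP supernatant replicate 2, and 0.0019 without eGFP supernatant replicate 3.

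Psme1 and Psme2 encode the α and β subunits of PA28, a cap that opens the proteasome core. Psme1 had 69.3, 68.5 and 68.0 CPM in untreated control, 70.1, 77.2 and 61.2 with eGFP supernatant, 188.0, 183.6 and 179.9 with rIFNβ, and 167.6, 184.2 and 163.3 with Ifnb1eGFP supernatant. Psme2 had 93.6, 90.1 and 88.9 CPM in untreated control, 83.1, 95.8 and 81.7 with eGFP supernatant, 201.8, 186.5 and 192.9 with rIFNβ, and 200.9, 175.1 and 178.9 with Ifnb1eGFP supernatant. Both were tight within groups, and all exposed libraries were well above all unexposed ones. Psme1 rose by 1.42 (SE 0.0749, adjusted p = 2.76e-08, edgeR) with rIFNβ and by 1.304 (SE 0.0746, adjusted p = 6.13e-08, edgeR) with Ifnb1eGFP supernatant. Psme2 rose by 1.09 in both (SE 0.0701, adjusted p = 1.38e-07 and 1.58e-07, edgeR). The log2 ratio of Psme1 to Psme2 was higher by 0.27 in the exposed libraries (p = 0.01, adjusted 0.02, exact permutation test). With relabelling within replicate numbers its adjusted p was 0.125 (exact permutation test). This ratio carries a limit: Psme2b, a copy of Psme2 with 790 of 795 aligned bases identical (99.4%), was counted at 5.32 to 7.35 CPM in unexposed and 27.1 to 34.8 CPM in exposed libraries, and RSEM may have split reads between them.

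Tap1 and Tap2 form the transporter that moves peptides into the ER. Tap1 was at 34.1, 29.6 and 33.1 CPM in untreated control, 32.7, 58.1 and 29.6 with eGFP supernatant, 295.7, 298.8 and 275.6 with rIFNβ, and 207.1, 296.1 and 240.5 with Ifnb1eGFP supernatant. It had the largest log2 fold change of the 10 genes, 3.17 (SE 0.229, adjusted p = 3.70e-07, edgeR) and 2.63 (SE 0.223, adjusted p = 1.57e-06, edgeR), and its 95% intervals overlapped those of Nlrc5 and Psmb9. Tap2 was at 56.3, 51.7 and 62.0 CPM in untreated control, 58.0, 68.3 and 47.5 with eGFP supernatant, 148.9, 158.1 and 136.8 with rIFNβ, and 93.0, 160.8 and 113.0 with Ifnb1eGFP supernatant. Its rise was smaller, 1.38 (SE 0.183, adjusted p = 5.52e-05, edgeR) and 1.08 (SE 0.182, adjusted p = 0.000377, edgeR). Per kb of canonical transcript, Tap1 had 10.4 ± 0.757 CPM in untreated control and Tap2 14.3 ± 1.3 (SD, n = 3), and with rIFNβ Tap1 had 93.4 ± 4.05 and Tap2 37.2 ± 2.69. The order of the 2 subunits at the RNA level thus turned with exposure. With supernatant the values were 12.9 ± 5.03 for Tap1 and 14.6 ± 2.61 for Tap2 without IFNβ, which differ by less than their spread, and 79.8 ± 14.5 and 30.7 ± 8.77 with it. The log2 ratio of Tap1 to Tap2 was higher by 1.70 in the exposed libraries (p = 0.005, adjusted 0.0125, exact permutation test). With relabelling within replicate numbers its adjusted p was 0.0781 (exact permutation test).

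Tapbp encodes tapasin, which bridges TAP and the empty class I molecule, and Erap1 an ER aminopeptidase that shortens the peptides. Tapbp was at 256.8, 241.0 and 247.6 CPM in untreated control, 264.5, 297.5 and 209.9 with eGFP supernatant, 482.7, 514.5 and 435.8 with rIFNβ, and 355.1, 518.8 and 394.7 with Ifnb1eGFP supernatant. It rose by 0.94 (SE 0.144, adjusted p = 0.000175, edgeR) and 0.72 (SE 0.144, adjusted p = 0.00131, edgeR), the latter the smallest change of the 10 genes in that comparison. Erap1 was at 101.0, 96.9 and 93.8 CPM in untreated control, 99.9, 95.9 and 91.7 with eGFP supernatant, 181.2, 172.3 and 171.4 with rIFNβ, and 201.4, 171.7 and 179.2 with Ifnb1eGFP supernatant. Its groups were compact, and it rose by 0.85 (SE 0.0612, adjusted p = 3.62e-07, edgeR) and 0.94 (SE 0.0612, adjusted p = 1.74e-07, edgeR). Erap1 was the one gene of the 10 with a larger estimate for Ifnb1eGFP supernatant than for rIFNβ.

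**Figure D3:**
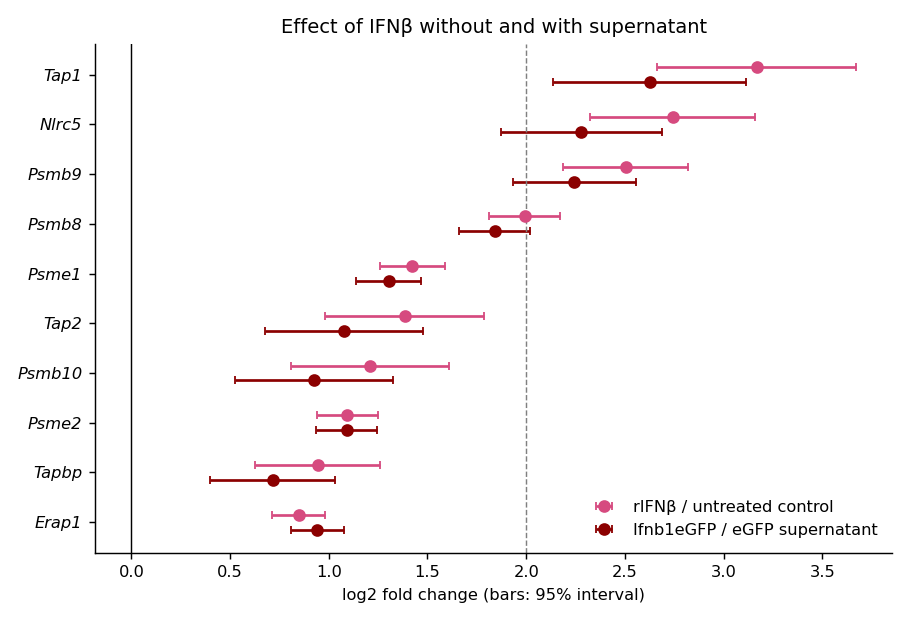
Log2 fold change of the 10 genes for rIFNβ over untreated control and for Ifnb1eGFP over eGFP supernatant, with bars for the 95% interval and a dashed line at 2. The genes run from Tap1 at 3.17 and 2.63 to Erap1 at 0.85 and 0.94, and the 2 intervals of each gene overlap.

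The order of the genes by size of rise with rIFNβ was Tap1, Nlrc5, Psmb9, Psmb8, Psme1, Tap2, Psmb10, Psme2, Tapbp and Erap1. The 95% intervals of neighbours in this order overlapped, with 2 exceptions. Psmb9 (2.19 to 2.82) lay above Psmb8 (1.81 to 2.17), and Psmb8 above Psme1 (1.26 to 1.59). Tap1, Psmb9 and Psmb8, which lie side by side on chromosome 17, were among the 4 genes with the largest rises, and their neighbour Tap2 was the sixth.

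The second question was whether supernatant or the source of IFNβ mattered. Both supernatants came from Dox-treated cells, and no Dox is given for untreated control or rIFNβ. Effects of supernatant and of any Dox left in it cannot be told apart. None of the 10 genes was called for eGFP supernatant against untreated control, where 0.299% of all genes were called in either direction. By edgeR 0 of the 10 had an unadjusted p under 0.05, and DESeq2 called 0. The log2 fold changes ran from -0.18 for Psmb10 to 0.37 for Nlrc5, and the 95% intervals of the 10 genes spanned -0.58 to 0.79. The end values moved with single libraries of eGFP supernatant. Without replicate 2 Nlrc5 was at 0.040, Tap1 at -0.05 in place of 0.32 and Psmb10 at -0.33, and without replicate 3 Psmb10 was at -0.05. Without replicate 1 Nlrc5 was at 0.56, and without replicate 3 Tap1 was at 0.49. None was called in these fits.

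Between Ifnb1eGFP supernatant and rIFNβ, at an equal nominal IFNβ concentration, 0 of the 10 genes were called by edgeR or DESeq2, against 0.16% of all genes by edgeR. Of the 10 genes, 9 had lower estimates with Ifnb1eGFP supernatant, from -0.46 for Psmb10 to -0.07 for Psme2, and Erap1 was at 0.07. Their median was -0.17, beside -0.0026 over all genes. The 10 estimates come from the same libraries, so their signs are not independent. Psmb10 was the 1 gene with an unadjusted p under 0.05 in edgeR (95% interval -0.86 to -0.07, adjusted p = 0.56). Without Ifnb1eGFP supernatant replicate 2, Psmb10 was called at -0.72 (adjusted p = 0.0301, edgeR) and Tap2 at -0.52 (adjusted p = 0.0495, edgeR). This comparison therefore rested on 1 library for these genes, and the intervals of all 10, from -0.86 to 0.29, do not show that both sources act alike.

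The interaction asks whether IFNβ changed a gene by a different amount when it came with supernatant. None of the 10 genes was called by edgeR or DESeq2, 0 had an unadjusted p under 0.05 in edgeR, and 9 estimates were below 0, with Tap1 the lowest at -0.54 and Erap1 at 0.09. How many of all genes were below 0 was not counted, and the 10 estimates come from the same libraries. Single libraries moved them as well. Leaving out 1 library at a time gave -0.72 to -0.18 for Tap1 and -0.65 to -0.13 for Nlrc5, the values nearest 0 being those without eGFP supernatant replicate 2. The estimate of Psme2 was near 0 and took either sign, from -0.059 to 0.074. The 95% intervals spanned -1.20 to 0.28. Over all genes edgeR called 0.0%, with 661 of 15033 at an unadjusted p under 0.05, and DESeq2 called 11.

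Some libraries stood apart from the others of their group in these genes. eGFP supernatant replicate 2 was the highest of the 6 unexposed libraries for 9 of the 10 genes, all but Erap1. How many of all genes were highest in this library was not counted, so 9 of 10 cannot be called particular to these genes. Relative to the mean of the other 5, this library was 1.83-fold for Tap1, 1.80-fold for Nlrc5 and 1.35-fold for Psmb9, 1.10- to 1.24-fold for the next 6 genes and 0.992-fold for Erap1. Among the regulators followed here, Stat2 and Irf9 were also highest in this library of the 6 unexposed ones, and Rfx5, Irf1, Irf8 and Irf2 by smaller margins. Stat2 was at 124.8 CPM there, at 57.9 and 46.6 in the other eGFP supernatant libraries and at 43.4 to 61.9 in untreated control. In the same order, Irf9 was at 49.5, at 33.3 and 31.9, and at 29.2 to 36.3 CPM. Irf1 was at 49.0, at 40.7 and 32.6, and at 35.6 to 47.0 CPM. Irf2 was at 80.1, at 75.6 and 77.0, and at 78.1 to 79.9 CPM. Irf8 was at 136.5, at 133.1 and 118.5, and at 122.4 to 126.4 CPM. Rfx5 was at 10.5, at 8.84 and 9.84, and at 7.79 to 8.27 CPM. Other regulators went otherwise. Rfxap at 7.87 CPM and Ciita at 0.999 CPM were lowest in this library, and Nfya, Nfyc and Rfxank were highest in others. For Stat2 the library was far below the exposed ones, which were at 636.8 to 677.4 CPM. Without this library the log2 fold change with Ifnb1eGFP supernatant was 2.99 for Tap1 and 2.61 for Nlrc5.

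Ifnb1eGFP supernatant replicate 2 was higher than replicate 1 by 0.80 on the log2 scale for Psmb10, 0.79 for Tap2, 0.55 for Tapbp, 0.52 for Tap1 and 0.38 for Psmb9, and the other 5 genes ran from -0.23 to 0.16. The genes with the large gaps have transcripts rich in G and C. GC content was 55.3% to 57.4% for those 5 genes, 56.3% for Psmb8, 48.9% to 52.6% for Psme1, Psme2 and Nlrc5, and 41.5% for Erap1. Across the 10 genes, which are not independent and come from the same pair of libraries, Pearson's r between GC content and the gap was 0.701 and Spearman's rho 0.79. A like slope ran through all genes with known GC content (14962 of 15033). Their median gap rose from -0.22 in the decile of genes with the lowest GC content (median 40.0%) to 0.64 in the decile with the highest (59.5%). When each library's trend with GC content was removed, in a fit added after these data were seen, all 10 genes were called in both IFNβ comparisons, and Psmb8 joined the genes past a log2 fold change of 2, at 2.03 with rIFNβ and 2.00 with Ifnb1eGFP supernatant. Erap1, the gene with the lowest GC content, then rose by 0.61 and 0.67.

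**Figure D4:**
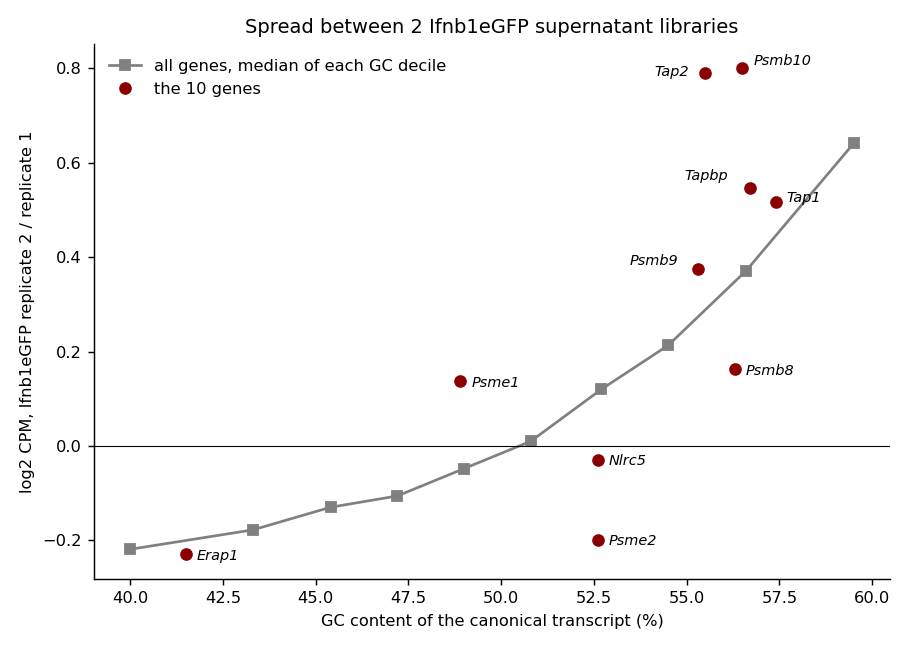
Log2 ratio of CPM in Ifnb1eGFP supernatant replicate 2 to replicate 1 against the GC content of the canonical transcript in percent, for the 10 genes (points) and as medians over GC deciles of all genes (squares). Psmb10 and Tap2 lie highest at 0.80 and 0.79, and the medians of all genes climb from -0.22 to 0.64.

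The genes that work with these 10 were followed in 7 lists. The counts of each list stand beside 30.7% and 30.1% of all genes called higher and 24.6% and 25.0% called lower. Among 5 genes of class I assembly in the ER, 2 rose and 3 fell in both comparisons. B2m, the light chain of class I, rose by 1.96 and 2.02 (adjusted p = 1.05e-09 and 9.76e-10, edgeR), from 1215 to 1437 CPM in unexposed to 4986 to 5568 CPM in exposed libraries. Tapbpl, a relative of tapasin that edits peptides, rose by 1.43 and 1.35. The general folding factors of the ER went the other way: Calr fell by 1.05 and 0.96, Canx by 0.44 and 0.37, and Pdia3 by 0.29 and 0.27. Calr was at 943 to 1008 CPM in unexposed and 453 to 504.5 CPM in exposed libraries, with no overlap.

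Of 15 class I heavy chain genes 12 were tested, and 11 rose and 1 fell in both comparisons, with a median log2 fold change of 3.18 and 3.02. Heavy chain genes are close in sequence, so reads may be split between them and single values are uncertain. H2-Q6 went from 4 to 20 counts per unexposed library to 2195 or more in each exposed library, with a log2 fold change of 8.36 and 7.63, and H2-Q4 rose by 4.90 and 4.60 (adjusted p = 4.07e-10 and 7.65e-10, edgeR). H2-M3, a nonclassical chain that presents formylated peptides, rose by 2.05 and 1.93. H2-M2 was the exception and fell by 1.23 and 1.96, from 2.67 to 3.44 CPM in unexposed to 0.795 to 1.42 CPM in exposed libraries.

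Of 11 other subunits of the 20S core, 3 were called higher, 2 lower and 6 not called in each comparison, with log2 fold changes of -0.21 to 0.47. These counts are near the shares over all genes given above. The genes called higher differed in part: Psmb2 was called with rIFNβ alone and Psma6 with Ifnb1eGFP supernatant alone. Psma1 was the furthest, at 0.44 and 0.47 (adjusted p = 1.67e-05 and 1.05e-05, edgeR). Psma7 fell by 0.21 and Psmb1 by 0.12 in both. Of 8 other activators, inhibitors and assembly factors, 4 rose, 1 fell and 3 were not called in both. Over all genes 30.7% and 30.1% were called higher and 24.6% and 25.0% lower, and so short a list cannot be told from these shares. The risers included Psme3, the gene of the nuclear PA28γ cap, by 0.17 and 0.26, Psmf1, an inhibitor of the proteasome, by 0.38 and 0.36, and Psmg2, an assembly chaperone, by 0.38 and 0.27. Pomp, the maturation factor of the proteasome, fell by 0.18 and 0.11 (adjusted p = 0.00437 and 0.0465, edgeR).

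Among 8 other peptidases that trim or destroy peptides, 3 rose, 2 fell and 3 were not called in both comparisons, which is near the shares over all genes given above. Lnpep, an endosomal relative of Erap1, rose by 0.81 and 0.98 (adjusted p = 0.000114 and 2.73e-05, edgeR). Blmh, a cytosolic peptidase, fell by 0.70 and 0.51, and Npepps, the puromycin-sensitive aminopeptidase of the cytosol, fell by 0.30 and 0.29.

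Of 13 regulators of the route, 6 rose, 3 fell and 4 were not called with rIFNβ, and 7, 3 and 3 with Ifnb1eGFP supernatant. The part that fell was near the share called lower over all genes, 24.6% and 25.0%. The share called higher over all genes was 30.7% and 30.1%. Irf2 rose by 0.70 and 0.75, Irf1 by 1.69 and 1.71 and Irf9 by 1.79 and 1.50 (adjusted p of at most 3.44e-06, edgeR). Stat2, a signal transducer of the type I interferon receptor, rose by 3.69 and 3.08 (adjusted p of at most 4.93e-06, edgeR), larger estimates than for any of the 10 genes. The regulators that fell were Ciita, the class II coactivator related to Nlrc5, by 1.09 and 1.39, Nfya by 0.45 and 0.40, and Rfxap by 0.35 and 0.28. Ciita was low, at 0.999 to 1.56 CPM in unexposed and 0.298 to 0.742 CPM in exposed libraries. Nfya and Rfxap encode parts of NF-Y and RFX, the factors that bind class I and class II promoters, and other parts of both did not fall. Rfx5 rose by 0.69 and 0.35 (adjusted p = 7.00e-06 and 0.00128, edgeR). Nfyb was at 0.19 with rIFNβ (adjusted p = 0.0592, edgeR) and rose by 0.31 with Ifnb1eGFP supernatant (adjusted p = 0.00602, edgeR). Rfxank and Nfyc were not called in either comparison.

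**Figure D5:**
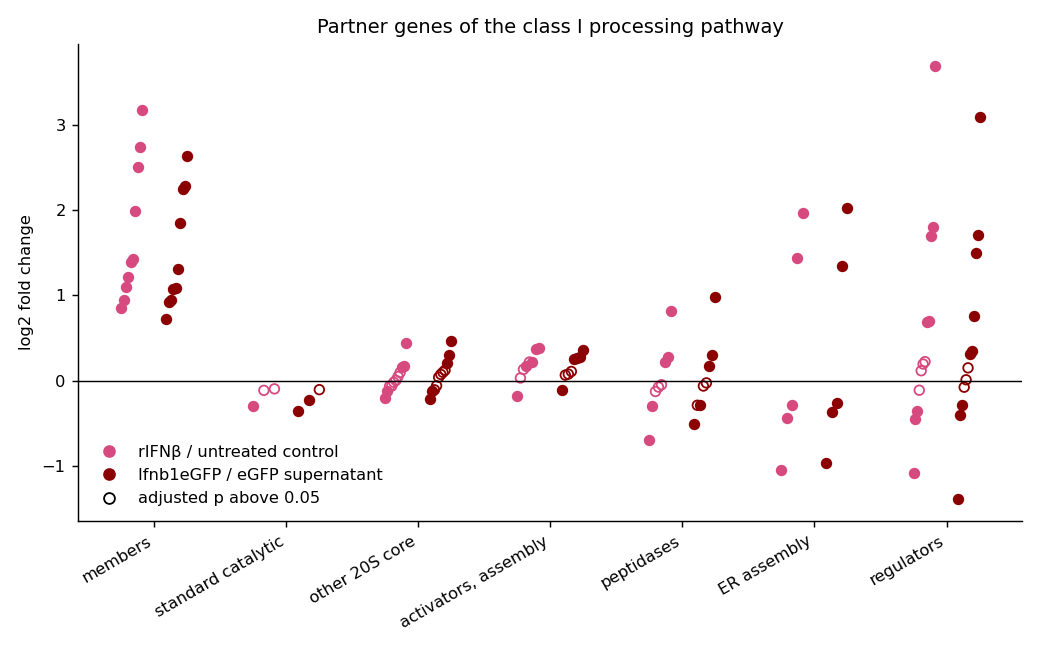
Log2 fold changes of the 10 genes (members) and of 6 of the 7 lists, with the class I heavy chains left out because their values reach 8.36, and 1 regulator not shown. Filled points have an adjusted p of at most 0.05 in edgeR, and the standard and other core subunits of the proteasome lie between -0.36 and 0.47 while all 10 members lie at 0.72 or higher.

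The genes most like the 10 were taken as those whose log2 CPM over the 12 libraries had the highest Pearson r with the members' mean profile, among 12045 other genes with a mean of at least 1 CPM. They were Chmp4b, Rnf31, Stard3, Mov10 and H2-T23, each with r = 0.998. These correlations are over 12 libraries in which exposure sets most of the profile. Rnf31, a ubiquitin ligase subunit that rose by 1.69 and 1.40, overlaps Psme2 on the opposite strand. H2-T23, the mouse Qa-1 heavy chain, rose by 2.35 and 2.16.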

How the data were processed

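RNA from 12 cultures of M2-like BMDM (3 libraries for each of 4 conditions, 600 ng of total RNA) had been prepared with a TruSeq stranded total RNA kit. The authors ran RSEM (v1.3.3), and the file they deposited holds its expected counts for 56748 Ensembl genes, not normalized. GRCm39 mm10 is the reference genome stated, a name that mixes 2 builds. Positions given here are those of GRCm39 (GENCODE M39), and promoter windows those of RefSeq GRCm38.p6. Columns were matched to samples by their descriptions, and 0 columns were left over.

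Expected counts were rounded, since 12.0% of the deposited values were not whole. In R 4.3.3, genes passing filterByExpr (15033) were scaled by TMM and fitted over all 12 libraries with edgeR 4.0.16. Its quasi-likelihood test compared conditions, with p-values adjusted by Benjamini-Hochberg. The fit was tested on simulated counts. CPM used the TMM-scaled library totals, and log2 ratios a prior count of 2. Library totals of 31526034 to 45348457 left at least 534 counts per member and library.

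The 10 members and the lists were chosen with earlier results of these data known. Of each list, at most the 3 genes with the smallest adjusted p for Ifnb1eGFP against eGFP supernatant were named, and those called against the direction of the list. Named too were the counterparts Psmb5, Psmb6 and Psmb7 and the 5 genes most like the members in profile. Canx, Pdia3, Stat2, Irf8, Rfx5, Rfxank, Nfyb, Nfyc, Psma6, Psmb2 and Psme2b were named outside this rule, with their values known. The values of 1 regulator are not reported here.

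The analysis was repeated with DESeq2 1.42.0, RLE factors, no filter on low counts, a block for the replicate number, only the compared groups in the fit, a log2 fold change of at least 1 as threshold, a prior count of 0.5, each library left out in turn and, added after seeing the data, removal of each library's GC trend (natural spline, 5 degrees of freedom).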

Additional observations from a re-analysis of the deposited data

How the results depend on the processing

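All 10 genes were called higher in both IFNβ comparisons under every alternative run, and the 20 log2 fold changes kept their direction and their call throughout. With a threshold of 1 on the log2 scale and an adjusted p of 0.05, 8 genes passed with rIFNβ and 7 with Ifnb1eGFP supernatant, in place of 3. At the study's threshold 4 genes passed with rIFNβ without untreated control replicate 1, untreated control replicate 3 or rIFNβ replicate 3. Psmb8 was at 2.01, 2.01 and 2.02 in these fits. Between Ifnb1eGFP supernatant and rIFNβ, leaving out single libraries gave 0 to 2 called genes, 2 of them without Ifnb1eGFP supernatant replicate 2, and Erap1 was at -0.0057 with the GC trend removed.

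Values near 0 changed sign. For eGFP supernatant against untreated control, leaving out single libraries gave log2 fold changes of -0.049 to 0.49 for Tap1, -0.10 to 0.16 for Tap2, -0.067 to 0.18 for Tapbp, -0.12 to 0.039 for Psmb8, -0.17 to 0.16 for Psmb9, -0.063 to 0.10 for Psme1 and -0.052 to 0.011 for Erap1. With no filter on low counts Psmb8 was at 0.017 and Erap1 at 0.011. The interaction of Psme2 was 0.01 with RLE factors, 0.022 with the GC trend removed, 0.011 in DESeq2 and -0.059 to 0.074 without single libraries. For the effect of supernatant on the log2 ratios, leaving out single libraries gave -0.019 to 0.055 for Psmb8/Psmb5, -0.11 to 0.0019 for Psmb9/Psmb6, -0.47 to -0.22 for Psmb10/Psmb7, -0.021 to 0.063 for Psme1/Psme2 and 0.064 to 0.21 for Tap1/Tap2 (adjusted p = 0.0429 without Ifnb1eGFP supernatant replicate 2, exact permutation test). Psme1/Psme2 was at -0.013 with the GC trend removed.

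The replicate numbers were not taken as pairs, since what they stand for is not stated. Libraries of the same number correlated in their deviations from the group means at 0.0582 to 0.252 (mean 0.148), over 0.1 in 13 of 18 pairs. All these correlations were above 0, and whether libraries of the same number belong together was not tested. With the replicate block the calls of the 10 genes were 10, 10, 0, 0 and 0 as without it. The IFNβ effect on the ratios was then 2.25 for Psmb8/Psmb5, 2.55 for Psmb9/Psmb6, 1.17 for Psmb10/Psmb7 and 1.70 for Tap1/Tap2 (adjusted p = 0.0781, exact permutation test within pairs) and 0.27 for Psme1/Psme2 (adjusted p = 0.125). With the pairs kept, fewer relabellings are possible, so these p-values are larger by construction, and the effects equal those without the block.

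The main limits are the small number of libraries, 3 a group, the GC trend between Ifnb1eGFP supernatant libraries, reads shared with overlapping genes or with Psme2b, and the transcript length behind values per kb. Depth was not limiting for the 10 genes, with 534 counts or more each. RNA levels do not give protein or surface class I.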
